A study of Homo sapiens with 2 samples.

Results

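The 9 genes that carry the first steps of T-cell receptor signalling were examined for NUDT21 peaks: *CD3D*, *CD3E*, *CD3G*, *CD247*, *LCK*, *ZAP70*, *LAT*, *LCP2* and *PLCG1*. They were chosen by gene name in GENCODE release 44, and no measured value entered the rule, although earlier results of these data were known. They are 9 of the 20033 protein-coding genes annotated on chromosomes 1 to 22, X and Y. The data were CUT&Tag peaks of NUDT21 in J.gamma1, an established line of T-cell acute lymphoblastic leukemia derived from Jurkat and known for lacking the enzyme encoded by *PLCG1*. CUT&Tag uses an antibody to tether a transposase to chromatin, and the fragments it cuts out there are sequenced. NUDT21 is the RNA-binding subunit of cleavage factor I, which helps choose where the 3′ end of a transcript is made. Both samples were biological replicates of that 1 line with the same antibody, and the labels name no treatment, so they formed 1 group without a second condition, and every value below is a description with no test between groups.

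The T-cell receptor has no kinase of its own. Its CD3 chains (encoded by *CD3D*, *CD3E* and *CD3G*) and the zeta chain (*CD247*) carry tyrosine motifs that the kinase LCK phosphorylates, and the kinase ZAP70 docks on these motifs and phosphorylates the adaptors LAT and SLP-76 (*LCP2*). On this scaffold phospholipase C gamma 1 (*PLCG1*) is activated and cuts a membrane lipid into the messengers that raise calcium and switch on protein kinase C and RAS. A NUDT21 peak marks chromatin where the antibody gave more fragments than the background. It measures neither the RNA nor the protein of a gene.

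On the main chromosomes the list of replicate 1 held 92722 peaks and that of replicate 2 held 66671. Read totals were not analysed here, so absolute depth is unknown, but the number of fragments at each summit (the highest point of a peak) could be recovered from the deposited values, and its median was 30 in replicate 1 and 20 in replicate 2. The fold of a peak is the enrichment at its summit over the background level, and its median was 3.95 and 4.23. Since folds belong to 1 list each, every fold is given with its percentile, the percent of peaks in the same list with a lower fold. Among markers of the T lineage, 4 of 5 genes (*CD5*, *CD7*, *BCL11B* and *TCF7*, but not *CD2*) had a promoter peak in both replicates. The share over all protein-coding genes was 57%.

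The start regions of the 9 genes differed widely in base composition, and the sequences just upstream of 4 of them are shown because the strength of the peaks is set against base composition below. RefSeq promoter sequences (GRCh38.p14) were matched by symbol for 7 of the 9 genes, with 11 entries in all and none for *CD3E* and *CD3G*. The stretches run 5′ to 3′ on the gene's strand, stop before the first annotated exon base of the gene, and have each CG dinucleotide in capitals. They lie at chr5:170297816-170298027 (minus strand, *LCP2*), chr11:118342706-118342955 (minus strand, *CD3D*), chr1:32251015-32251243 (plus strand, the distal start of *LCK*) and chr2:97713326-97713575 (plus strand, *ZAP70*).
LCP2: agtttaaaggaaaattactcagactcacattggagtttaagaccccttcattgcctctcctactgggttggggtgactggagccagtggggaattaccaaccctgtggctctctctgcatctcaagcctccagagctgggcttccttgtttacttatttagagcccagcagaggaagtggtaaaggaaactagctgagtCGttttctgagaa
CD3D: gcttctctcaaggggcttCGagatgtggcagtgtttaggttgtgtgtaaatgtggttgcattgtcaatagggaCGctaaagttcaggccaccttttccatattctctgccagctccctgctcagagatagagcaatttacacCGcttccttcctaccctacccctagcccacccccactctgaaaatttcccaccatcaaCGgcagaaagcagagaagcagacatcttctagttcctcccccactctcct
LCK: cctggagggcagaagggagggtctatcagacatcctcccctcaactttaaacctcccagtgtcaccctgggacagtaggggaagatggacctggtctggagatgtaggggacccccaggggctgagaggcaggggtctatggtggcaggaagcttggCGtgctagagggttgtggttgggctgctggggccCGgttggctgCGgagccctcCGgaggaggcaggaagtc
ZAP70: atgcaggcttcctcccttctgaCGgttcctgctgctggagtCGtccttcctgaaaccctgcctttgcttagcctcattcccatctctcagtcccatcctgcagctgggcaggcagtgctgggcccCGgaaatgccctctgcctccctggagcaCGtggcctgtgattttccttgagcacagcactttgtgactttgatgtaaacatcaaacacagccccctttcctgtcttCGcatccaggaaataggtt
The *LCP2* stretch held 1 CG in 212 bases and had a GC content of 47.6%. *CD3D* held 4 in 250 bases (50.4% GC), *LCK* 4 in 229 bases (62.9% GC) and *ZAP70* 5 in 250 bases (55.2% GC). The 4 stretches stand for the CG-poor starts of the group. In the full RefSeq windows of 300 bases the 11 entries held from 4 to 47 CG, beside a median of 14 over all promoters. The highest counts were 47 in *PLCG1* and 18 in 1 of the 2 *LAT* entries.

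Over 500 bp either side of the canonical start, the start that Ensembl ranks first, the GC content was 46.9% for *CD3E*, 50.5% for *CD247*, 50.8% for *CD3G* and *LCP2* and 52.0% for *CD3D*. It was 60.4% for *ZAP70*, 60.8% for *LCK*, 67.9% for *LAT* and 76.6% for *PLCG1*. The median over all protein-coding genes was 61.3%, so the receptor chains and *LCP2* lay below it and only *LAT* and *PLCG1* lay above it.

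A promoter peak was defined as a peak whose nearest edge lay within 3 kb of any annotated start of the gene. In replicate 1, 8 of the 9 genes had one, beside 69.8% of all protein-coding genes, and in replicate 2 the same 8 had one, beside 57.9%. In both replicates together the count was 8 of 9, beside 57% of all genes. *CD3E* was the only one without. With the canonical start alone, 7 of 9 had a peak in both replicates, beside 52.3% of all genes, and *LCP2* was then the second gene without one. With only 9 genes, of which *CD3D* and *CD3G* share a peak, no test was made of these shares.

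Among the receptor chains, *CD3D* and *CD3G* shared 1 promoter peak, *CD247* had scattered peaks of low rank near its main start and *CD3E* had a peak only at its far end. *CD3D* (ENSG00000167286.11, chr11:118339075-118342705, minus strand), which encodes the delta chain, had 3 peaks in each replicate, and every one touched a peak of the other replicate. The peak over its start spanned chr11:118342105-118344574 in replicate 1 and chr11:118342121-118344389 in replicate 2. Its fold was 4.96 (percentile 73.4) in replicate 1, from 42 fragments over a background level of 7, and 7.38 (percentile 93.2) in replicate 2, from 25 fragments over 2.52. *CD3D* and *CD3G* are transcribed away from each other across a gap that this peak filled, and the same peak was the only one at *CD3G* (ENSG00000160654.11, chr11:118344344-118355161, plus strand), the gene of the gamma chain. The 2 genes therefore count as 1 observation. The summit lay 61 bp upstream of the *CD3G* start in replicate 1 but 301 bp inside *CD3D* in replicate 2, so the summits were 1879 bp apart and the peak could not be assigned to either gene.

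The other 2 peaks of *CD3D* were narrower or lay at its end. The middle one had folds of 3.42 and 4.63, with summits 61 bp apart. The end peak had folds of 4.15 (44 fragments) and 6.53 (31 fragments), and its summits lay 192 and 243 bp past the annotated gene end. With 3 peaks in 3631 bp, *CD3D* had 8.26 peaks per 10 kb in both replicates, a density above that of 98.8% and 99.0% of protein-coding genes. Every peak that touched a gene was counted, and genes were not matched for length. In replicate 1 only the middle peak had its summit inside *CD3D*, since that of the start peak lay 1578 bp upstream. In replicate 2 only the end peak had its summit outside.

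*CD3E* (ENSG00000198851.10, chr11:118304730-118316175, plus strand), the gene of the epsilon chain, had no peak called within 3 kb of any of its 4 starts. Its only peak lay in the 3′ UTR, with the summit 625 bp before the gene end in replicate 1 and 497 bp before it in replicate 2, so 128 bp apart. The fold was 2.42 (percentile 4.99) from 41 fragments over a background level of 15, and 2.96 (percentile 9.77) from 25 fragments over 7.8. Both folds were near the bottom of their lists although the fragments were above the median, over a background level that was itself above the medians of 6 and 3.90. The nearest peak edge to the *CD3E* start was 10723 bp away in replicate 1 and 10807 bp away in replicate 2, both on this 3′ UTR peak.

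*CD247* (ENSG00000198821.12, chr1:167425027-167518640, minus strand), the gene of the zeta chain, spans 93614 bp and has 27 annotated starts. It had 16 peaks in replicate 1 and 9 in replicate 2, of which 6 and 6 touched a peak of the other replicate. Near its canonical start the peak of replicate 1 (fold 2.46, percentile 5.62) lay 614 bp inside the gene, while that of replicate 2 (fold 2.93, percentile 8.86) covered the start, and the 2 did not overlap. A start of *AKR1D1P1* also lay within 3 kb of each. The strongest promoter peaks, with folds of 4.27 (percentile 58.8) and 4.18 (percentile 48.6), lay 82693 and 79985 bp downstream of the canonical start, beside internal starts. They too were different peaks. The peak of replicate 2 had a partner in replicate 1 with a fold of 4.21 and a summit 25 bp away. At the canonical start of *CD247*, then, no peak was found in the same place in both replicates.

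**Figure D1:**
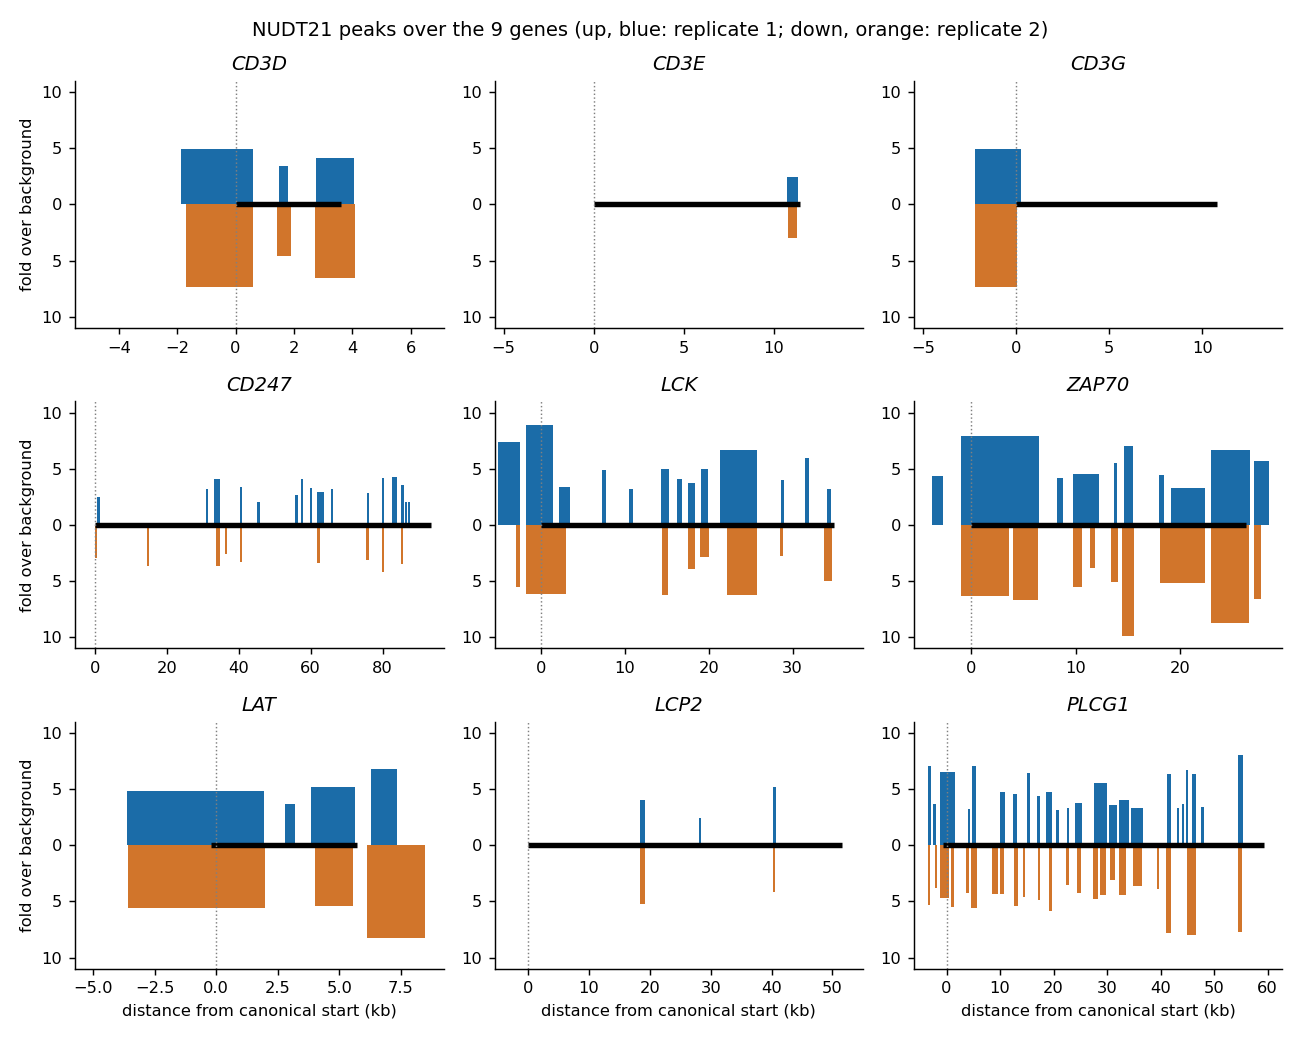
Every NUDT21 peak at each of the 9 genes, plotted as fold over background (vertical axis, replicate 1 in blue upward and replicate 2 in orange downward) against the distance from the canonical start in kb (dotted line at 0); the black bar is the gene, and the narrowest peaks are drawn at a minimum width. *CD3E* has its single peak of 2.42 and 2.96 at the gene end, and *ZAP70*, *LCK* and *PLCG1* carry peaks from the start far into the gene.

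The kinase genes carried some of the strongest peaks of the group. *LCK* (ENSG00000182866.18, chr1:32251244-32286165, plus strand), which encodes the SRC-family kinase that opens the cascade, had 13 peaks in replicate 1 and 8 in replicate 2, of which 9 and 8 were matched. The gene is known for 2 promoters, a distal one at its canonical start and a proximal one that is used in the thymus. At the distal start the fold was 8.88 (percentile 96.3) from 76 fragments in replicate 1 and 6.12 (percentile 85.6) from 46 fragments in replicate 2. The summits lay 931 and 117 bp upstream of the start. A start of *FAM167B* also lay within 3 kb of this peak.

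The proximal starts of *LCK* were covered by another broad peak, chr1:32272666-32277085 in replicate 1 and chr1:32273442-32277009 in replicate 2. Its fold was 6.67 (percentile 90.1) from 76 fragments, and 6.23 (percentile 86.8) from 33 fragments. The distal peak had the higher fold in replicate 1 and the proximal peak in replicate 2, so the replicates did not give the 2 promoters in the same order. A further peak lay at the end of the gene, in a coding exon, with summits 499 and 501 bp before the gene end, only 2 bp apart. Its fold was 3.23 (percentile 26.3) from 55 fragments over a level of 15 and 5.02 (percentile 70.8) from 46 fragments over 8.35. A small-RNA gene annotated as Y_RNA also starts near it.

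*ZAP70* (ENSG00000115085.15, chr2:97713576-97739862, plus strand), the kinase that docks on the receptor chains, was covered by peaks over 67.4% of its length in replicate 1 and 64.2% in replicate 2. It had 10 and 9 peaks, of which 9 and 9 were matched. The start lay in 1 peak of 7463 bp in replicate 1 (fold 7.88, percentile 94.5, summit 4557 bp inside the gene). In replicate 2 that stretch was split into a start peak (fold 6.31, percentile 87.2) and an intron peak (fold 6.67, percentile 89.7). The strongest promoter peak of replicate 2 was instead the one at the end of the gene, beside internal starts, with a fold of 8.70 (percentile 96.7), where replicate 1 had 6.67 (percentile 90.1). The *ZAP70* summits that lay closest together were in an intron away from any start, where summits 14751 and 14731 bp downstream of the start were 20 bp apart, with folds of 7.01 (percentile 91.7) and 9.86 (percentile 98.1).

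Of the adaptors, *LAT* (ENSG00000213658.13, chr16:28984826-28990784, plus strand) was covered by peaks over most of its length and *LCP2* over little of it, 3.27% in replicate 1 and 2.49% in replicate 2. *LAT* encodes the membrane adaptor that ZAP70 phosphorylates. Its peaks covered 74.0% of the gene in replicate 1 and 62.5% in replicate 2. Over its start lay a peak of 5583 bp in replicate 1 and 5555 bp in replicate 2, with folds of 4.87 (94 fragments) and 5.61 (39 fragments) and summits 265 and 684 bp upstream. The strongest peaks lay just past its 3′ end, with summits 891 and 930 bp beyond it and folds of 6.81 (percentile 90.8) and 8.27 (percentile 95.9). They counted as promoter peaks because *LAT* has 15 annotated starts, some of them near its end. A start of another gene, ENSG00000261552, also lay within 3 kb of them. The peak over the *LAT* start likewise lay within 3 kb of a start of ENSG00000260367.

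*LCP2* (ENSG00000043462.13, chr5:170246233-170297815, minus strand) encodes SLP-76, the cytosolic adaptor that joins the LAT scaffold. No peak was called within 3 kb of its canonical start in either replicate. The nearest edge was 3187 bp upstream in replicate 1, on a peak with a fold of 2.31 (percentile 3.35), and 18376 bp away in replicate 2. Its strongest promoter peaks, with folds of 5.18 (percentile 76.6, 19 fragments) and 4.12 (percentile 46.6, 10 fragments), belonged to internal starts and lay 40308 and 40238 bp inside the gene. Replicate 1 had a further, unmatched promoter peak 28121 bp inside with a fold of 2.47. The most fragments at any summit of the 9 genes were found in an intron of *LCP2*, 100 in replicate 1 over a background level of 22 and 65 in replicate 2 over 11.7. The summits lay 18933 and 18879 bp downstream of the start, 54 bp apart, and over this background their folds were 4.05 (percentile 52.6) and 5.20 (percentile 73.6).

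*PLCG1* (ENSG00000124181.15, chr20:41136960-41196801, plus strand), the gene whose product J.gamma1 lacks, had the most peaks of the 9. There were 24 peaks in replicate 1 and 23 in replicate 2, of which 19 and 20 were matched. The start was covered in both replicates, by chr20:41136249-41139090 and chr20:41136340-41137980. The fold there was 6.53 (percentile 89.4) from 84 fragments and 4.69 (percentile 63.1) from 35 fragments, and the summits lay 60 and 64 bp downstream of the canonical start, in the 5′ UTR. A NUDT21 peak was thus called at the *PLCG1* start in this line. The starts of the antisense gene *PLCG1-AS1* also lay within 3 kb of it, and the peaks do not tell the strands apart.

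The strongest promoter peak of *PLCG1* was elsewhere, and in different places in the 2 replicates. In replicate 1 it lay upstream, with a fold of 7.08 (percentile 92.0) and a summit 3352 bp before the start, where replicate 2 had 5.31 (percentile 75.4) with a summit 2 bp away. In replicate 2 it lay 44947 bp inside the gene, with a fold of 7.998 (percentile 95.2), where replicate 1 had 6.75 (percentile 90.6) with a summit 7 bp away. The last peak of the gene, in an intron 54739 and 54930 bp from the start, had folds of 8.01 (percentile 94.8) and 7.74 (percentile 94.4). Between these peaks others followed along the whole gene, with folds from 3.17 in replicate 1 and from 3.09 in replicate 2, and *MIR6871*, a microRNA gene in an intron, starts near some of them.

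Within the group, the strongest promoter peaks of the kinases, *LAT* and *PLCG1* ranked high among all peaks of both lists. The mean percentile was 95.6 ± 1.59 (SD, n = 2) for *ZAP70*, 93.6 ± 2.29 for *PLCG1*, 93.4 ± 3.55 for *LAT* and 91.5 ± 6.76 for *LCK*. These 4 were not placed in an order. The peak shared by *CD3D* and *CD3G* followed with 83.3 ± 14.0, then *LCP2* with 61.6 ± 21.2 and *CD247* with 53.7 ± 7.21. The values of *CD3D* and *LCP2* differed too much between replicates to be placed apart from their neighbours. For *ZAP70*, *PLCG1*, *LCK* and *CD247* the strongest promoter peaks of the 2 replicates were different peaks. Their SD is therefore not the spread of 1 peak. The upstream peak of *PLCG1*, its strongest promoter peak in replicate 1, stood at percentile 92.0 in replicate 1 and 75.4 in replicate 2. The median over the 8 genes was 83.7 in replicate 1 and 93.2 in replicate 2, and over all protein-coding genes that had one it was 82.4 and 77.9. With the peak shared by *CD3D* and *CD3G* counted once, as 7 values, the median was 90.8 in replicate 1 and 93.2 in replicate 2. Ranked only among the strongest promoter peaks of all protein-coding genes that had one, every gene stood lower. In replicates 1 and 2 the percentiles were then 72.5 and 83.4 for *ZAP70* and 65.8 and 78.8 for *PLCG1*. *LAT* stood at 63.6 and 80.6 and *LCK* at 78.5 and 62.0. The shared peak stood at 40.3 and 73.9, *LCP2* at 43.2 and 24.9 and *CD247* at 29.0 and 26.2.

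**Figure D2:**
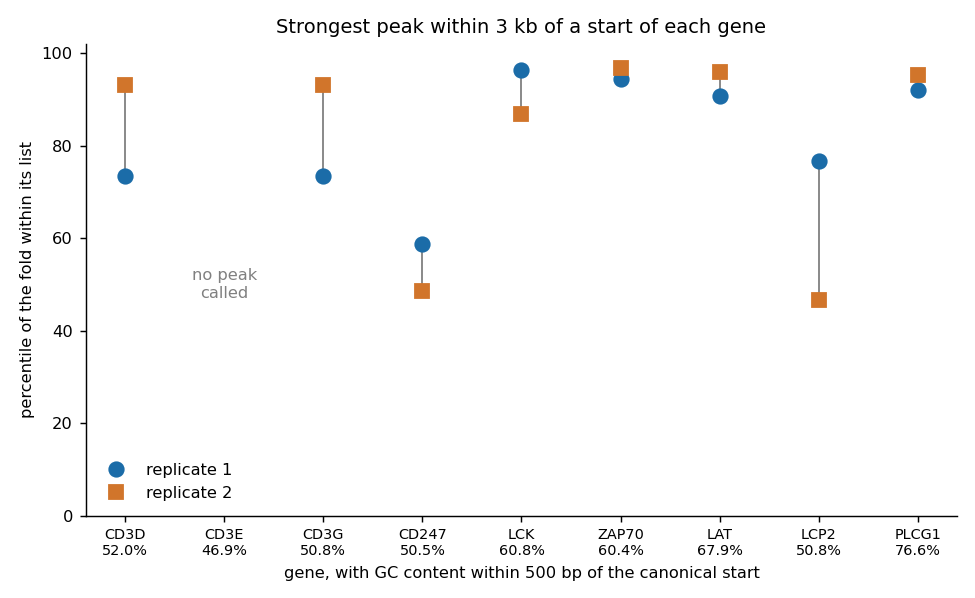
Percentile of the fold, within its own list, of the strongest promoter peak of each gene (vertical axis) in replicate 1 (circles) and replicate 2 (squares), with the promoter GC content under each gene name. *LCK*, *ZAP70*, *LAT* and *PLCG1* lie between 86.8 and 96.7 in both replicates, and *LCP2* has the widest gap, from 46.6 to 76.6.

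Promoter peaks were next related to the GC content of the start region. Over all protein-coding genes, sorted into deciles by promoter GC, the share with such a peak in both replicates rose from 5.96% in the lowest decile to 75.0% in the highest. *CD3E*, *CD3G*, *CD247* and *LCP2* lay in the second decile, where 26.0% of genes had such a peak, and 3 of these 4 had one. *CD3D* lay in the third (53.4%), *LCK* and *ZAP70* in the fifth (68.5%), *LAT* in the eighth (69.6%) and *PLCG1* in the highest (75.0%), and all 5 had one. With the canonical start alone, 2 of the 4 genes of the second decile had a peak in both replicates, beside 20.3% of the genes in that decile, and these were *CD3G*, through the peak shared with *CD3D*, and *CD247*, with different peaks in each replicate. *LCP2* had its promoter peaks only at internal starts, away from the region whose GC content set its decile.

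**Figure D3:**
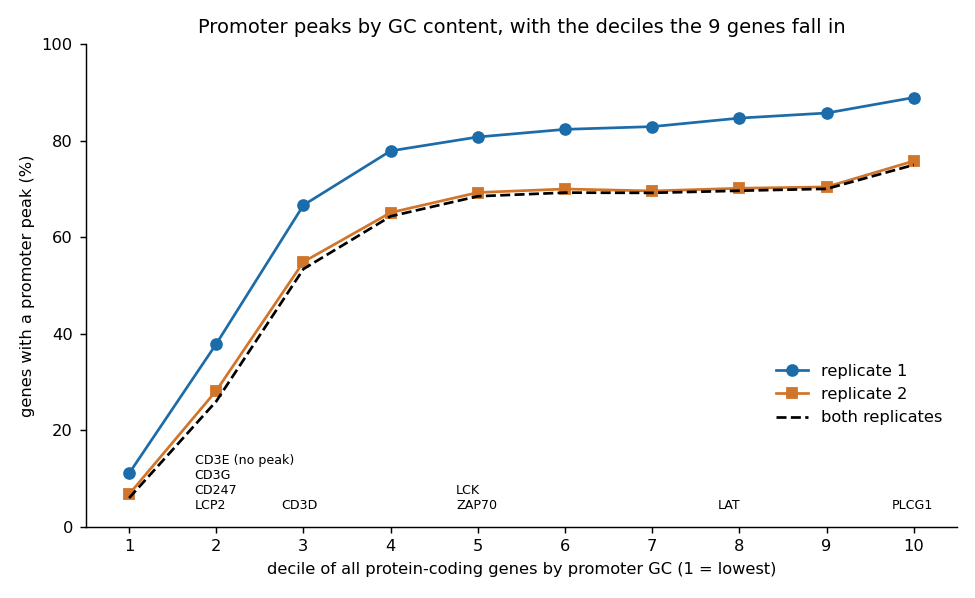
Share of protein-coding genes that had a promoter peak, in percent (vertical axis), in each decile of promoter GC content (horizontal axis), for replicate 1 (circles), replicate 2 (squares) and both (dashed), with the 9 genes named at their deciles. The share in both replicates climbs from 5.96% to 75.0%, most of it over the lowest 4 deciles.

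Across the 8 genes with a promoter peak, the mean percentile of the strongest one rose with promoter GC, with a Spearman's rho of 0.84 (0.75 in replicate 1 and 0.64 in replicate 2). Here *CD3D* and *CD3G* share 1 peak, the points share both libraries, and each percentile is the best of 1 to 14 peaks. The GC content is that of the canonical start, but the strongest peak often lay near another start. This held for *CD247*, *LCP2* and *LAT* in both replicates and for *LCK*, *ZAP70* and *PLCG1* in replicate 2. A rho from peaks at the canonical start alone is not given here. Over the 11425 protein-coding genes that had a promoter peak in both replicates rho was 0.13, by the same measure. A gene with many annotated starts also had more chances of a peak. In both replicates a promoter peak was called for 34.2% of genes with 1 start, 48.7% with 2 to 4, 63.4% with 5 to 9, 71.2% with 10 to 19 and 75.4% with 20 or more. *CD3E* and *CD3G* have 4 starts each and *CD247* and *PLCG1* have 27 and 23, and the part of the number of starts in the peaks of these genes was not tested.

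Peaks inside the genes and beyond 3 kb of any of their starts were found in 6 of the 9 in both replicates (*CD3E*, *CD247*, *LCK*, *ZAP70*, *LCP2* and *PLCG1*), beside 28.6% of all protein-coding genes. *CD3D*, *CD3G* and *LAT* had none. Length bears on this count directly, since most of the 3631 bp of *CD3D* lies within 3 kb of its start. A summit within 1000 bp of the annotated gene end, the place where NUDT21 is known to act on RNA, was found in both replicates for 4 of 9 (*CD3D*, *CD3E*, *LCK* and *LAT*), beside 12.9% of all genes, and for *ZAP70* in replicate 2 only. A *ZAP70* peak spanned the gene end in both replicates, but its summit lay 1068 bp before the end in replicate 1 and 650 bp in replicate 2. Apart from promoter peaks, *CD3E* and *LCK* had a summit within 1000 bp of the gene end in both replicates, beside 7.33% of all genes. The longest genes, *CD247*, *PLCG1* and *LCP2*, and the shorter *CD3G* had no peak at the gene end in either replicate.

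Peak density also differed along with base composition. Per 10 kb of gene there were 0.58 and 0.39 peaks in *LCP2*, 0.87 in *CD3E* and 0.92 in *CD3G* in both replicates, and 1.71 and 0.96 in *CD247*. *LCK* had 3.44 and 2.00, *ZAP70* had 3.04 in both, *PLCG1* had 3.68 and 3.51, and *LAT* had 5.03 and 3.36. Spearman's rho between the mean density and the GC content of the gene body was 0.85 over the 9 genes and 0.69 over all 20033. Genes of the same decile of body GC were compared without matching for length. *CD3D* had a higher density than 99.7% of them in replicate 1 and 99.9% in replicate 2, and *PLCG1* than 87.6% and 92.7%. *CD3G* had a higher density than 88.0% and 93.9%, but only from the edge of the peak shared with *CD3D*. That edge covered 2.14% and 0.43% of *CD3G*, and the summit lay outside *CD3G* in both replicates. *ZAP70* had the lowest standing, above 34.8% and 47.9%, and the other 5 genes lay between 49.8% and 84.8%.

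**Figure D4:**
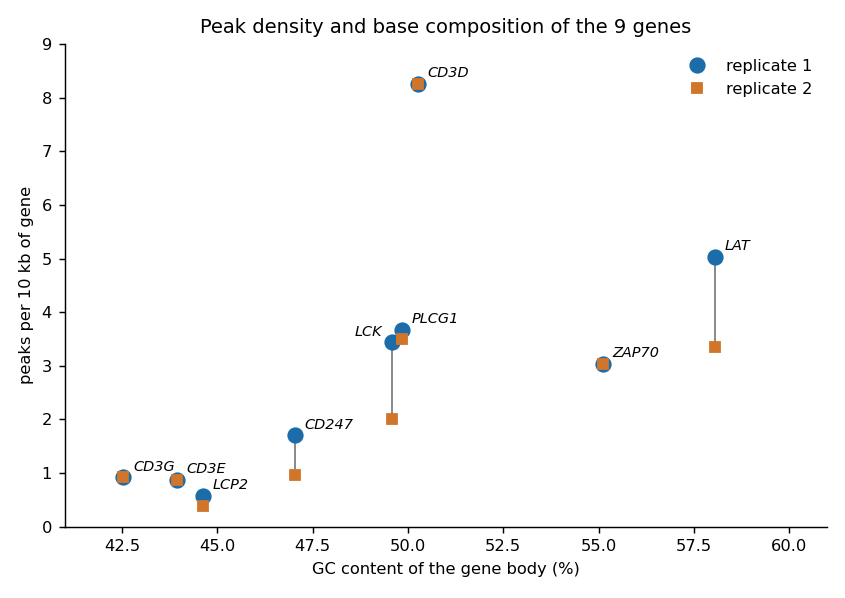
Peaks per 10 kb of gene (vertical axis) against the GC content of the gene body in percent (horizontal axis), for replicate 1 (circles) and replicate 2 (squares). *CD3D* stands highest at 8.26 with only 3 peaks in a short gene, and *CD3E*, *CD3G* and *LCP2* lie under 1.

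Other genes of the pathway were listed by role. Of 15 further kinases and adaptors around the receptor, 8 had a promoter peak in both replicates, 2 in 1 replicate and 5 in neither. *VAV1*, the exchange factor that SLP-76 recruits, had folds of 8.57 and 8.50, and *GRB2*, the adaptor between LAT and the RAS exchange factor SOS, had 6.23 and 8.50. *FYB1*, *NCK2*, *THEMIS*, *TRAT1* and *TXK* had no promoter peak. Of 15 negative regulators, 12 had one in both replicates, 2 in 1 and 1, the phosphatase gene *PTPN22*, in neither. The highest ranking were *PTPN6*, the gene of the phosphatase SHP-1, with folds of 14.7 and 14.1, and *UBASH3A*, with 10.1 and 12.4.

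Among 8 coreceptors and costimulators, 4 had a promoter peak in both replicates, 2 in 1 replicate, and *CD2* and *PTPRC* in neither. *CD4*, the coreceptor that brings LCK to the receptor, had folds of 10.1 and 11.1, and *CD6* had 7.28 and 6.36. Downstream of *PLCG1*, 10 of 13 genes had one in both replicates and 3 in 1 replicate. *NFATC3*, a calcium-responsive transcription factor, had folds of 17.9 and 11.1, and the calcium channel gene *ORAI1* had 9.94 and 7.15. The counterparts that serve the B-cell and related receptors are not part of T-cell receptor signalling. Of these, 8 of 10 had a promoter peak in both replicates, beside 57% of all genes. *CD79A*, a B-cell receptor chain, had folds of 8.43 and 7.31, and *SYK*, the relative of ZAP70, had 6.49 and 6.82. The *SYK* peaks lay near other annotated starts, with none within 3 kb of its canonical start in either replicate. *BLNK* and *LYN* had none. With the canonical start alone, the counts in both replicates were 7 of 15 for the further kinases and adaptors, 11 of 15 for the negative regulators, 4 of 8 for the coreceptors and costimulators, 9 of 13 downstream and 4 of 10 for the B-cell counterparts, beside 52.3% of all genes. That of the 9 T-cell genes was 7 of 9, which includes *CD3G* through the peak shared with *CD3D* and *CD247* with peaks that did not overlap.

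**Figure D5:**
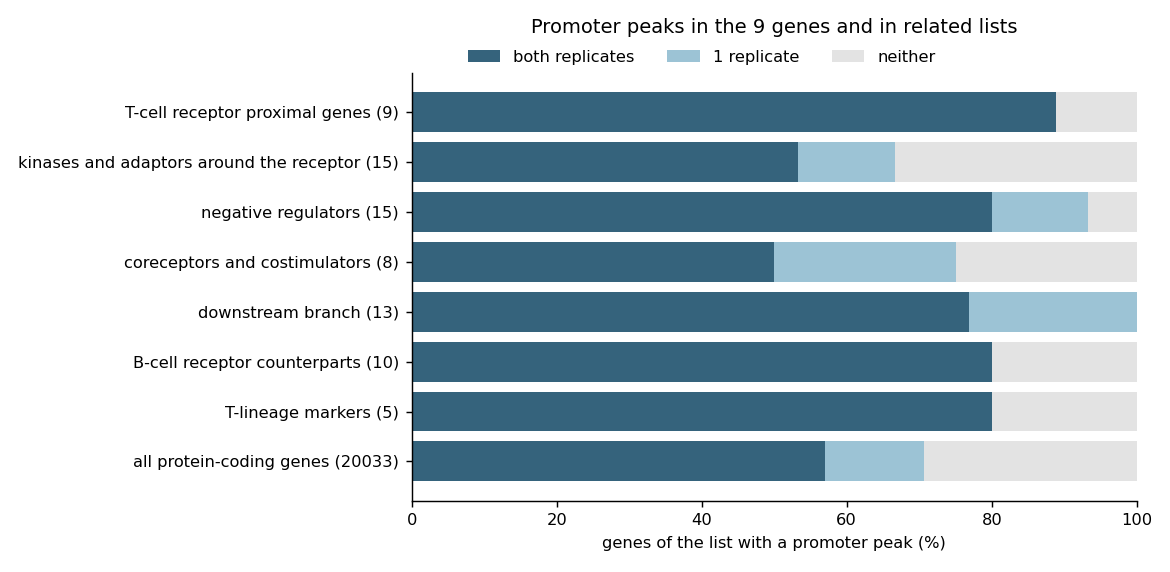
Percent of the genes in each list (number of genes in parentheses) with a promoter peak in both replicates, in 1 replicate or in neither (stacked bars on the horizontal axis). The 9 T-cell receptor proximal genes reach 8 of 9 in both replicates, the B-cell receptor counterparts 8 of 10, and all protein-coding genes 57%.

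In the 300 bases of each RefSeq promoter (250 before to 50 after the start), 5 short motifs were searched on both strands, none of which contains another. The RUNX word TGTGGT was found in 3 of the 11 entries (*CD3D*, the distal *LCK* start and 1 *LAT* start), beside 13.1% of all 35114 promoters, and the first 2 can be read in the sequences above. The ETS word CGGAAG was found in 1 entry (*ZAP70*), beside 19.5%, and the GATA word AGATAA in 0, beside 10.3%. The ETS word itself contains a CG, and only the *PLCG1* entry and 1 *LAT* entry held more than the median of 14 CG. The part of CG content in these counts was not tested. The 11 entries come from 7 genes, and the 2 *LAT* windows overlap. The E-box CANNTG was found in 6 entries, beside 68.7%. TGTA, the DNA letters of the UGUA that NUDT21 binds in RNA, was found in 8 of 11, beside 58.5% of all promoters, and was missing from the *PLCG1* window of 81.0% GC, from that of *LCP2* and from 1 of the 3 windows of *ZAP70*.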

How the data were processed

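Per the labels and the study's methods, CUT&Tag was performed on J.gamma1 cells in 2 biological replicates with an antibody against NUDT21. The authors processed reads with fastp, aligned them to hg38 with Bowtie2 2.2.5, removed duplicates with Picard and called peaks in each replicate separately with MACS3 (3.0.1 in the submitters' processing notes). Options and any control library are not given in the sources used here. For each peak the deposited files hold a fold enrichment (a linear ratio), the −log10 p-value and −log10 q-value at the summit, a score that repeats the −log10 q-value as a whole number and was not used, and the summit's position.

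Peaks on chromosomes 1 to 22, X and Y were assigned to genes with GENCODE release 44. A promoter peak had its nearest edge within 3000 bp of any transcript start, and a gene-end peak had its summit within 1000 bp of the 3′ end. Fragments and background level at each summit were solved from the deposited fold and −log10 p, as MACS computes them, for 99.98% and 99.997% of peaks, with the pileup of replicate 1 scaled by 0.921. MACS scales a pileup when it compares libraries of unequal depth. Whether both lists were called against the same control library is not stated, and a shared one would enter both folds. GC content was read from hg38 and promoter sequences from RefSeq. Python 3.11.15, numpy 2.4.6, pandas 2.3.3, scipy 1.17.1 and matplotlib 3.10.9 were used, and the assignments were tested on simulated data. Both samples are 1 group, so no test was made. The spread given is that between 2 libraries, and the strongest promoter peak of a gene could be a different peak in each.

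The 9 genes, the related lists and the rules were chosen with earlier results of these data known. In each related list the text names the 2 genes with the highest mean percentile and up to 4 without a promoter peak in either replicate. *TXK*, the fifth such gene of its list, was named after its values were seen. Alternatives were other promoter definitions, stricter peak sets, other rankings and GC windows, peaks near several protein-coding genes left out, and each replicate alone. Some items examined are not reported here.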

Additional observations from a re-analysis of the deposited data

How the results depend on the processing

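Of 40 recomputed values, 33 stayed within 1.5 times the reported count or within 1 SD between replicates of the reported value, 7 moved further and 0 changed sign. A promoter peak in each replicate was reported for 8 of the 9 genes. That count was 8 in each replicate alone and 7 or 8 under every alternative but 1. With the 10000 peaks of each list that had the highest −log10 p it was 4 (*LCK*, *ZAP70*, *LAT* and *PLCG1*), and the count of all protein-coding genes went from 11425 to 4924. In the other alternatives that count lay between 8519 and 10792 where the promoter definition or q-value was stricter or peaks near several genes were left out, 11209 with peak summits, and 11603 and 13978 in replicates 2 and 1 alone. *CD3G* was lost when peaks near several protein-coding genes were left out. *LCP2* was lost with promoters of 1000 bp, with starts of protein-coding transcripts, with the canonical start and at a −log10 q of at least 5. Gene-body peaks were found in 5 or 6 genes throughout. The mean of the 2 replicates' median percentiles was 88.5. It was 81.1 with starts of protein-coding transcripts and 79.5 with the canonical start, and 83.7 to 93.2 in single replicates. Spearman's rho between promoter GC and percentile was 0.64 to 0.75 in single replicates and 0.73 with GC over 250 bp before to 49 bp after the start. With the peak shared by *CD3D* and *CD3G* counted once, an alternative chosen after seeing the data, the mean of the medians was 92.0 and rho was 0.79. No paired analysis was possible because the samples form 1 group. A missing peak says only that none was called at this depth, and replicate 2 had fewer peaks and fewer fragments than replicate 1.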

Other observations

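The constant genes of the receptor's own variable chains were looked at after the values of the 9 genes had been seen. *TRAC*, the alpha chain constant gene (chr14:22547506-22552156, plus strand), had 5 peaks within 3 kb in replicate 1 and 6 in replicate 2. The strongest lay past its 3′ end, at chr14:22553650-22557629 in replicate 1 and chr14:22554042-22557629 in replicate 2. Their folds were 10.99 and 10.1, both at percentile 98.2, above every peak of the 9 signalling genes in each list. The summits were 4545 and 3989 bp past the end of *TRAC*.

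The beta chain constant genes had fewer and weaker peaks. *TRBC1* had 4 and 3 within 3 kb, with folds up to 6.18 in replicate 1 and 4.66 in replicate 2, and *TRBC2* had 3 and 2, with folds up to 4.47 and 5.44. *TRDC*, *TRGC1* and *TRGC2*, the constant genes of the delta and gamma chains, had 0 peaks within 3 kb in either replicate.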
